A study of Bos taurus with 6 samples.

Results

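The genes described here encode parts of the cilium: the axonemal dyneins (DNAH, DNAI, DNAL and DNALI1), the cilia and flagella associated proteins (CFAP), the intraflagellar transport proteins (IFT), the BBS proteins, the dynein 2 motor of intraflagellar transport (DYNC2) and the transition zone protein IQCB1. They were taken by a rule on gene names, which was set with earlier results of these data known. In the count table, 48 of the 12826 genes fitted it. The rule names IQCB1 singly, and other transition zone genes are described with the pathway. All 48 passed the filter on low counts, which left 12732 genes for testing. The libraries were made from pools of bovine (Bos taurus) blastocysts at day 7 of in vitro production, from slaughterhouse material. Embryos of the BHB group (n = 3 libraries) had been treated with BHB, the ketone body beta-hydroxybutyrate, and embryos of the control group (n = 3 libraries) had not. Both groups were otherwise labelled alike. How much BHB was used, when and for how long, and how many embryos made a pool is not given in the sources used here.

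A cilium is a rod of microtubules, the axoneme, that grows from a basal body and is covered by membrane. Motile cilia and sperm tails beat because outer and inner dynein arms on the axoneme slide its microtubules, under the control of radial spokes and a central pair. Primary cilia lack the arms and act as antennae, for instance in Hedgehog signalling. Both kinds are built by intraflagellar transport: IFT-B particles move outward with kinesin-2 motors, IFT-A particles return with dynein 2, and the BBSome carries membrane proteins. In mouse embryos primary cilia are first seen after implantation, on cells that derive from the epiblast, so a blastocyst is not a tissue known for its cilia.

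Total counts ran from 6440732 to 7348949 in the BHB libraries and from 7925889 to 8176648 in the controls. The 48 genes together took 0.0683%, 0.0827% and 0.0883% of all counts in BHB libraries 1 to 3, against 0.0589%, 0.0802% and 0.0775% in control libraries 1 to 3. The unit of level is CPM, a count divided by its library's TMM-corrected size and set to a common scale. It is not corrected for gene length, so levels are compared between libraries, and between genes only in choosing which to name. A count of 3 corresponds to 0.352 to 0.438 CPM, and values at or under it hold little information. Markers of trophectoderm (8 of 8 listed) and 4 of 5 listed for each of the inner cell mass and the primitive endoderm were in the table. Of 13 markers of multiciliated oviduct epithelium, 5 were in the table, and FOXJ1, RSPH1, RSPH4A, TEKT1 and the rest of that list were not found there. The 3 BHB and 3 control libraries also form 3 pairs, each of 1 BHB and 1 control library with the same number. The pairs are not in the labels: they were recovered by refitting the authors' deposited p-values. What the libraries of a pair shared is not known here.

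Of the 48 genes, 37 reached 1 CPM in all 6 libraries and 11 in 3 to 5 of them. No gene of the count table reached 1 CPM in fewer than 3 libraries, so this lower end came with the table. Whether genes absent from it lay under that level was not tested. The fewest counts over the 6 libraries were 42, for DNAH1, an inner arm heavy chain, and the most were 4558, for CFAP54, a protein of the central pair. Members lie on 25 chromosomes of the RefSeq gene table (assembly ARS-UCD2.0), with at most 4 on any one. The names chosen fit 99 protein-coding genes of that table. Of these, 51 are not in the count table under that symbol and 8 of the 51 are there under an older name, such as WDR34 for a dynein 2 intermediate chain. The spans of 8 members overlap another protein-coding gene in it (BBS9, DNAH8, IFT122, IFT140, IFT27, IFT43, IFT74 and IFT81), and without a stated strand setting reads of such neighbours cannot be told apart. The genes under older names are described with the other genes of the pathway.

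No gene of the cilium passed the test between BHB and control embryos. Log2 fold changes (BHB over control) ran from -0.52 to 0.54 in the IFT and BBS genes and from -1.09 to 1.09 over all 48. A gene of the IFT-B particle, IFT57, had the smallest p-value. Between pairs of libraries 4 genes passed the test, and the widest differences there were in heavy chains of the axonemal dyneins. In pooled embryos, fewer cells of a type and less RNA per cell cannot be told apart.

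Between BHB and control, edgeR's quasi-likelihood test called 0 of the 48 genes at an adjusted p below 0.05, against a background of 0% over all tested genes, and the lowest adjusted p of a member was 0.999. DESeq2's Wald test and limma-voom also called 0 of the 48, each with 1 member at an unadjusted p below 0.05. At an unadjusted p below 0.05 edgeR gave 1 member, which is 2.08% of them, against 2.73% of all tested genes. A positive log2 fold change was found in 31 of the 48 genes (64.6%), against 49.1% of all tested genes. The median log2 fold change (BHB over control) was 0.21 over the members and -0.005 over all tested genes. This median was 0.06 without BHB library 3, with 25 genes positive, and 0.11 without control library 1. It was 0.28 on library sizes alone, a scaling that also moved the median of all genes to 0.06.

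In 5 of the 48 genes (10.4%) every BHB library lay above every control library, and in none did every BHB library lie below. Over all tested genes 7.84% had groups that did not overlap, 4.06% with BHB above and 3.78% with BHB below. The 5 genes were IFT57, IFT20, BBS7, CFAP126 and DNAL1, and they come from the transport particles, the BBSome, the CFAP group and the dynein light chains. Within pairs, 15 genes (31.2%) had the same direction in all 3, against 30.3% of all tested genes. Of these, 12 genes (25%) were higher with BHB in all 3 pairs, against 14.5% of all tested genes. In 3 genes (6.25%), BBS12, BBS5 and IFT122, BHB was lower in all 3 pairs, against 15.7% of all tested genes. The median of the members within a pair was 0.05, 0.09 and 0.15 on the log2 scale in pairs 1 to 3.

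**Figure D1:**
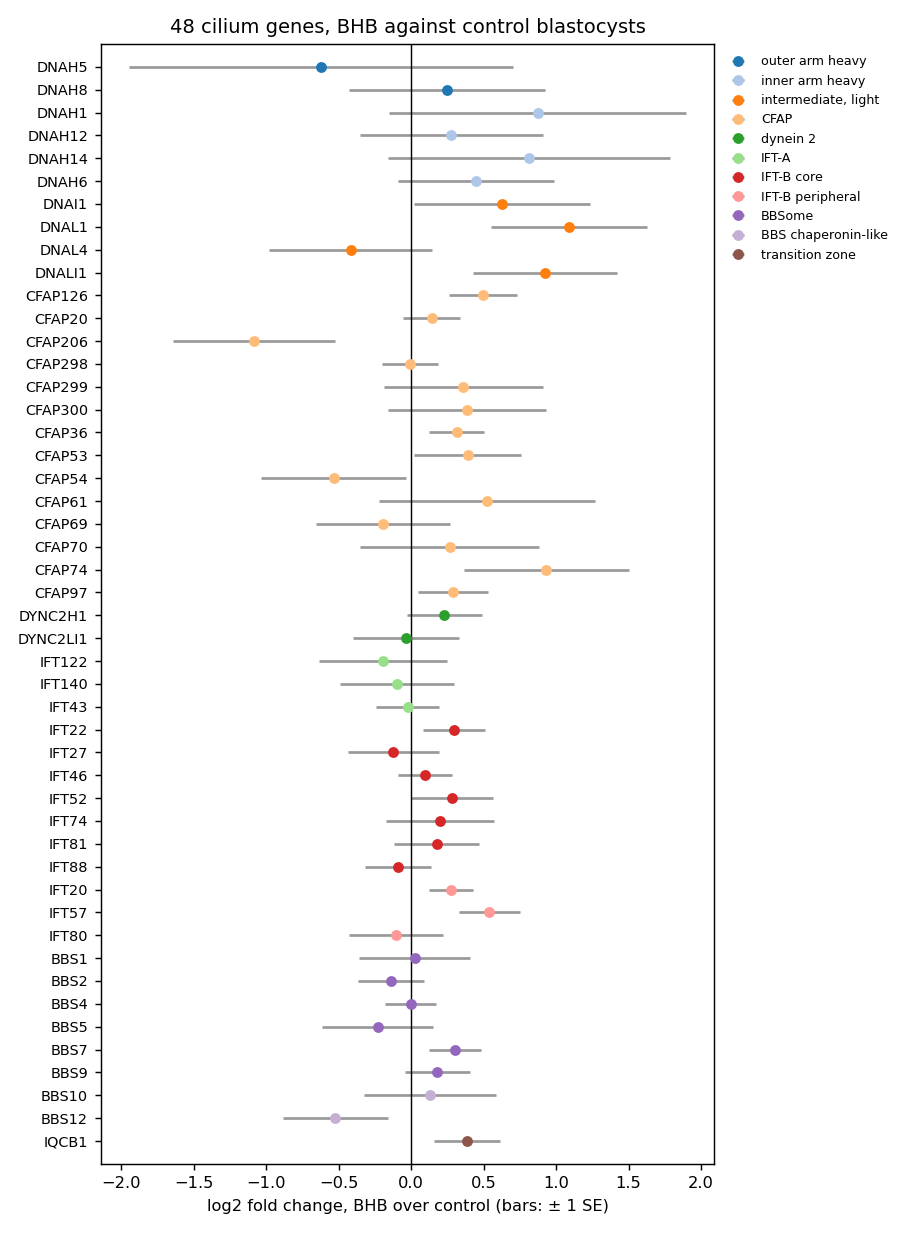
Log2 fold change (BHB over control, 3 libraries each) of the 48 cilium genes, grouped by role, with the standard error of the edgeR fit as bars and 0 as a line. DNAL1 (1.09) and CFAP206 (-1.09) lie farthest from 0 in each direction, the widest bar is that of DNAH5 (SE 1.33), the IFT genes run from -0.20 to 0.54, and no gene passed 0.05 adjusted.

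The outer dynein arms were represented by 2 heavy chains, the motor subunits that produce the stroke. DNAH8, the outer arm heavy chain of sperm tails, had 9.16, 33.7 and 57.2 CPM in BHB libraries 1 to 3, against 7.21, 29.6 and 47.1 CPM in control libraries 1 to 3. Each BHB library lay just above the control of its pair, and the pairs lay far apart. The log2 fold change was 0.25 (SE 0.68, unadjusted p = 0.723 and adjusted p = 0.999 by edgeR), and within pairs it was 0.33, 0.19 and 0.28. Without BHB library 3 it was -0.39. DNAH5, the outer arm heavy chain most often mutated in human primary ciliary dyskinesia, had 8.62, 0.415 and 0.146 CPM in BHB libraries 1 to 3, against 11.9, 2.39 and 0.117 CPM in control libraries 1 to 3. Its level in pair 3 rested on 1 count in each library, so that only pair 1 and the control of pair 2 stood above the limit of 3 counts. DNAH5 and the inner arm chains DNAH1, DNAH6 and DNAH14 are described because of their values and lie outside the rule for naming genes.

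The inner arm heavy chains, which shape the bend of the axoneme, numbered 4, and all 4 had a positive log2 fold change, with a median of 0.63. All 4 were lower with BHB in pair 3, with a median difference there of -0.29 on the log2 scale, and none had the same direction in all 3 pairs. DNAH12 had 2.83, 9.28 and 4.09 CPM in BHB libraries 1 to 3, against 1.20, 7.56 and 4.58 CPM in control libraries 1 to 3. The groups overlapped, and the log2 fold change of 0.28 (SE 0.63) became -0.36 without BHB library 2. DNAH1 had 2, 13 and 11 counts in BHB libraries 1 to 3, against 0, 2 and 14 counts in control libraries 1 to 3, where 0 counts allow up to 0.401 CPM. DNAH14 stood out in 1 library, with 55 counts in BHB library 2 and between 2 and 18 counts in every other library. Its log2 fold change of 0.81 (SE 0.97) was 0.31 in edgeR and 0.04 in DESeq2 with the pair as a block. DNAH6 ranged from 1.17 to 2.49 CPM with BHB and from 0.668 to 1.64 CPM in controls.

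The intermediate and light chains hold the dynein arms together and to the microtubule. Of the 4 among the 48 genes, 3 had a positive log2 fold change, with none past the test. DNAL1, an outer arm light chain that binds the motor domain, had 1.62, 1.80 and 3.79 CPM in BHB libraries 1 to 3, against 1.07, 1.59 and 0.704 CPM in control libraries 1 to 3. The groups did not overlap, but each value rested on 6 to 26 counts, and the log2 fold change of 1.09 (SE 0.54, unadjusted p = 0.0726 and adjusted p = 0.999 by edgeR) was 0.61 without BHB library 3. DNALI1, a light intermediate chain of inner arms, had 2.69, 3.74 and 1.31 CPM in BHB libraries 1 to 3, against 1.07, 1.59 and 1.41 CPM in control libraries 1 to 3. BHB libraries 1 and 2 were high and the third lay among the controls, for a log2 fold change of 0.92 (SE 0.50). DNAI1, an outer arm intermediate chain, gave 0.63 (SE 0.61), with its highest value of 3.21 CPM in BHB library 3, and DNAL4, a dynein light chain, gave -0.42 (SE 0.57), with its lowest value of 0.415 CPM in BHB library 2. Both overlapped between the groups.

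CFAP proteins sit in many parts of the axoneme. Of the 14 among the 48 genes, 10 had a positive log2 fold change, with a median of 0.30 and none past the test. CFAP126, known in mouse as Flattop and as a microtubule inner protein, had 15.2, 11.9 and 16.9 CPM in BHB libraries 1 to 3, against 9.22, 10.5 and 11.5 CPM in control libraries 1 to 3. The groups did not overlap, with the lowest BHB library just above the highest control, and the log2 fold change was 0.50 (SE 0.23, unadjusted p = 0.0620 and adjusted p = 0.999 by edgeR). CFAP206, a protein of the radial spoke region, had 0.674, 1.39 and 1.61 CPM in BHB libraries 1 to 3, against 2.94, 1.19 and 3.64 CPM in control libraries 1 to 3. It had the most negative log2 fold change of the 48 genes, -1.09 (SE 0.56), and overlapped through control library 2. CFAP54 had 73.3, 118 and 55.9 CPM in BHB libraries 1 to 3, against 43.9, 222 and 91.3 CPM in control libraries 1 to 3. Its control libraries spread more than its groups differed: the log2 fold change of -0.53 (SE 0.50) became 0.28 without control library 2, the highest of the 6. The other CFAP genes among the 48 had log2 fold changes from -0.20 for CFAP69 to 0.93 for CFAP74, and all overlapped.

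The dynein 2 motor pulls IFT trains back to the cell body. Its 2 subunits among the 48 genes lay close in the 2 groups, and its subunits under other names are described with the pathway. DYNC2H1, the heavy chain, had 15.6, 21.5 and 29.3 CPM in BHB libraries 1 to 3, against 15.2, 20.6 and 20.9 CPM in control libraries 1 to 3. DYNC2LI1, the light intermediate chain, had 5.52, 9.28 and 9.63 CPM in BHB libraries 1 to 3, against 4.81, 9.41 and 10.8 CPM in control libraries 1 to 3. Both were lowest in pair 1, and their log2 fold changes were 0.23 (SE 0.26) and -0.04 (SE 0.37).

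All 3 IFT-A subunits among the 48 genes had a negative log2 fold change, with a median of -0.10 and none past the test. IFT-A is the particle of the return path, and its subunits under other names are described with the pathway. IFT122, of the core of the particle, had 4.18, 11.5 and 5.25 CPM in BHB libraries 1 to 3, against 5.61, 11.8 and 6.58 CPM in control libraries 1 to 3. It was lower with BHB in each pair, by less than the pairs differed, for a log2 fold change of -0.20 (SE 0.44) that became 0.19 without control library 2. IFT43 was level over all 6 libraries, at 12.3, 10.5 and 11.1 CPM in BHB libraries 1 to 3, against 12.2, 11.1 and 11.2 CPM in control libraries 1 to 3.

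In IFT-B, the particle of the outward path, 7 of the 10 subunits among the 48 genes had a positive log2 fold change. IFT57, a peripheral subunit, had 34.5, 40.3 and 37.5 CPM in BHB libraries 1 to 3, against 20.97, 22.7 and 33.6 CPM in control libraries 1 to 3. The mean was 37.4 ± 2.91 CPM with BHB and 25.7 ± 6.84 CPM in controls (SD, n = 3 each). The groups did not overlap, with control library 3 close under the BHB libraries, and the log2 fold change was 0.54 (SE 0.21, unadjusted p = 0.0306 and adjusted p = 0.999 by edgeR). IFT20, the subunit that is also found at the Golgi, had 43.5, 48.6 and 51.9 CPM in BHB libraries 1 to 3, against 41.4, 38.2 and 39.5 CPM in control libraries 1 to 3. Its groups did not overlap either, and the log2 fold change was 0.28 (SE 0.15, unadjusted p = 0.0984 and adjusted p = 0.999 by edgeR).

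Among the 48 genes, the range in the IFT-B core was narrow, from -0.12 for IFT27 to 0.30 for IFT22 on the log2 scale. IFT88, the subunit whose hypomorphic mouse allele gives polycystic kidneys, had 16.3, 19.8 and 22.5 CPM in BHB libraries 1 to 3, against 17.5, 26.3 and 18.7 CPM in control libraries 1 to 3. IFT46, which links outer arm dynein to the train in the alga Chlamydomonas, had 56.7, 47.9 and 49.0 CPM in BHB libraries 1 to 3, against 56.8, 49.7 and 37.5 CPM in control libraries 1 to 3. Both overlapped, with log2 fold changes of -0.09 (SE 0.23) and 0.10 (SE 0.18).

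The BBSome, the coat-like complex mutated in Bardet-Biedl syndrome, had 6 subunits among the 48 genes, with a median log2 fold change of 0.01. BBS7 had 30.6, 28.1 and 29.0 CPM in BHB libraries 1 to 3, against 27.5, 20.2 and 23.5 CPM in control libraries 1 to 3. The BHB libraries lay close together and just above the controls, for a log2 fold change of 0.30 (SE 0.18, unadjusted p = 0.127 and adjusted p = 0.999 by edgeR). BBS4, a subunit that also binds PCM1 at centriolar satellites, had 51.2, 43.1 and 48.9 CPM in BHB libraries 1 to 3, against 58.1, 43.8 and 41.7 CPM in control libraries 1 to 3. It averaged 47.7 ± 4.18 CPM with BHB and 47.9 ± 8.95 CPM in controls (SD, n = 3 each). BBS2 gave -0.14 (SE 0.23) and BBS5, a subunit that binds phosphoinositides, -0.23 (SE 0.39). Both overlapped.

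Among the chaperonin-like proteins that help the BBSome assemble, BBS12 had 8.76, 14.3 and 7.30 CPM in BHB libraries 1 to 3, against 8.95, 20.7 and 14.0 CPM in control libraries 1 to 3. It was lower with BHB in all 3 pairs but overlapped over the groups, for a log2 fold change of -0.52 (SE 0.36, unadjusted p = 0.181 and adjusted p = 0.999 by edgeR). Its partner BBS10 gave 0.13 (SE 0.45).

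IQCB1, also called NPHP5, is a calmodulin-binding protein that works with CEP290 at the transition zone at the base of the cilium. It had 45.3, 50.8 and 71.6 CPM in BHB libraries 1 to 3, against 34.9, 39.5 and 54.1 CPM in control libraries 1 to 3. Every pair showed nearly the same difference, 0.37, 0.36 and 0.40 on the log2 scale, while the groups overlapped because both libraries of pair 3 were high. The log2 fold change was 0.38 (SE 0.23, unadjusted p = 0.126 and adjusted p = 0.999 by edgeR), and without BHB library 3 it was 0.16. With the pair as a block it was 0.38 (SE 0.13, unadjusted p = 0.0144 and adjusted p = 0.513 by edgeR). That fit put 3 members at an unadjusted p below 0.05, IFT57, IQCB1 and CFAP126, which is 6.25% of them against 8.2% of all tested genes, and called none of the 48. DESeq2 with the pair as a block gave an adjusted p to 33 of the 48 and called none of these, against 0.339% of all genes it gave one.

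Between pairs of libraries, with treatment in the model, 4 genes differed: the outer arm heavy chains DNAH8 and DNAH5 and the CFAP proteins CFAP54 and CFAP61. By pair mean, DNAH8, CFAP54 and CFAP61 were lowest in pair 1, and DNAH5 was highest there. DNAH8 was highest in pair 3, and CFAP54 and CFAP61 were highest in pair 2. edgeR's quasi-likelihood test of the pair terms called these 4 of the 48 genes (8.33%), against 4.12% of all tested genes. At an unadjusted p below 0.05 it gave 15 members (31.2%), against 20.6% of all tested genes. Nothing in the labels ties the pools to separate embryo batches, and all p-values here are set by the spread between these libraries. CFAP61 was named after its values were seen, like DNAH5.

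DNAH8 averaged 8.19, 31.6 and 52.1 CPM in pairs 1 to 3 (adjusted p = 0.000807 by edgeR). Its 793 counts in pair 3 against 122 in pair 1 gave a ratio of 6.31 per unit of library size (exact 95% interval 5.21 to 7.69, for counting error only). The gene that DNAH8 overlaps, LOC101904084, was not analysed here. DNAH5 averaged 10.3, 1.401 and 0.132 CPM in pairs 1 to 3 (adjusted p = 0.00410 by edgeR). Its 153 counts in pair 1 against 2 in pair 3 gave a ratio of 78.9, with an exact 95% interval of 21.5 to 657.1. The pair with the least DNAH8 had the most DNAH5, in the BHB and in the control library alike.

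CFAP54 averaged 58.6, 169.8 and 73.6 CPM in pairs 1 to 3 (adjusted p = 0.0446 by edgeR), with both libraries of pair 2 above the other 4. CFAP61, a protein of the radial spoke base, had 1.48, 6.51 and 7.00 CPM in BHB libraries 1 to 3, against 0.801, 7.16 and 2.47 CPM in control libraries 1 to 3 (adjusted p = 0.0496 by edgeR for the pairs). Both lay close to the threshold, and just beyond it came DNAH12 (adjusted p = 0.0553), DNAH14 (0.0775), IFT74 (0.0795), IFT122 (0.0798) and IQCB1 (0.0809, all by edgeR). DNAH8 and DNAH5 were called with each scaling and filter tried; CFAP54 and CFAP61 were not called on library sizes alone or among genes of at least 20 counts on average. Without pair 1 only CFAP54 was called: DNAH8 then had an adjusted p of 0.110 by edgeR and DNAH5 was left out by the filter.

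**Figure D2:**
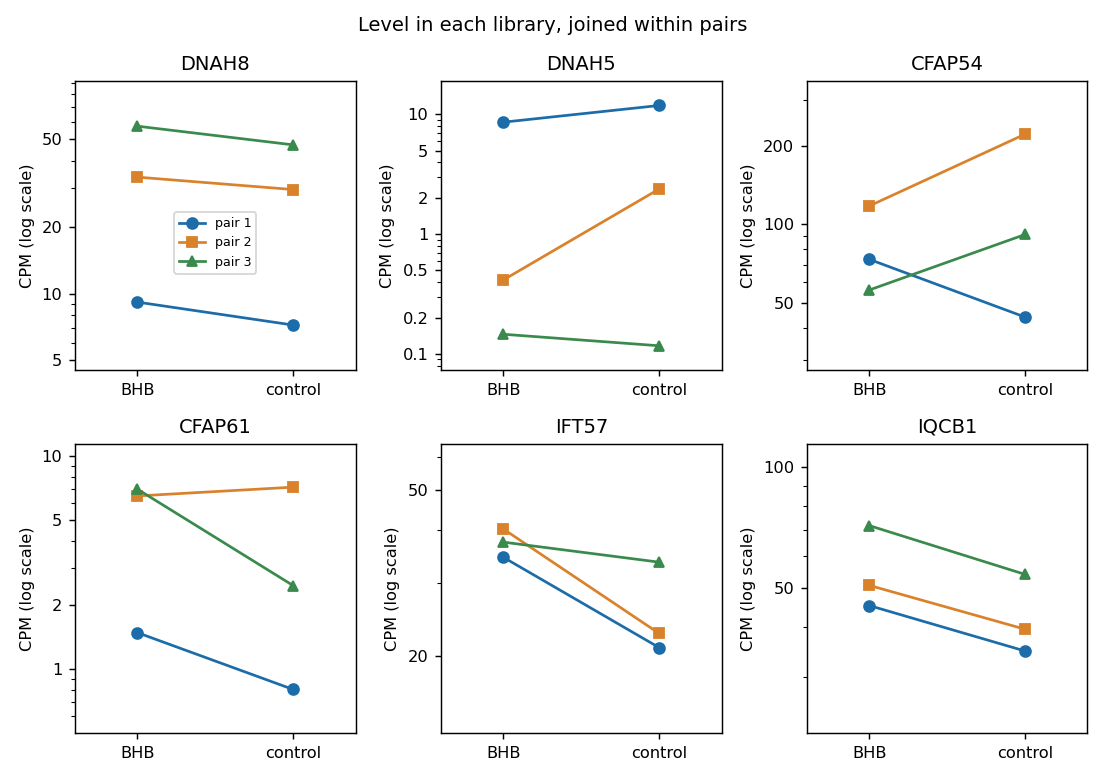
CPM on a log scale for 6 cilium genes in the BHB library (left) and the control library (right) of each of the 3 pairs, with a line joining each pair. DNAH8 and DNAH5 separate by pair, in opposite order, IQCB1 is higher with BHB in every pair by a like amount, and IFT57 has all 3 BHB libraries above all 3 controls.

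Differences between pairs were widest in the dynein heavy chains, and in the transport genes their median was near that of all genes. They are given as the range of the 3 pair levels on the log2 scale. The level of a pair is the mean log2 CPM, with a prior count of 2, of its BHB and control library. The 6 axonemal heavy chains had a median range of 2.48, from 0.77 for DNAH6 to 4.71 for DNAH5, and all 6 lay above the median of all tested genes, which was 0.42. The CFAP genes had a median of 0.72, with CFAP61 highest at 2.38, and the intermediate and light chains 0.77. The 21 IFT and BBS genes had a median of 0.43, near that of all genes, and ran from 0.09 for IFT20 to 1.22 for IFT122. None of the 21 was called between pairs, but without pair 2 IFT74 was. DNAH12 was called with DESeq2's size factors. Heavy chains with few counts, such as DNAH1, have a range that counting error alone widens, but DNAH8 had 54 counts or more in every library. The ranges were not compared with those of genes with like counts.

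**Figure D3:**
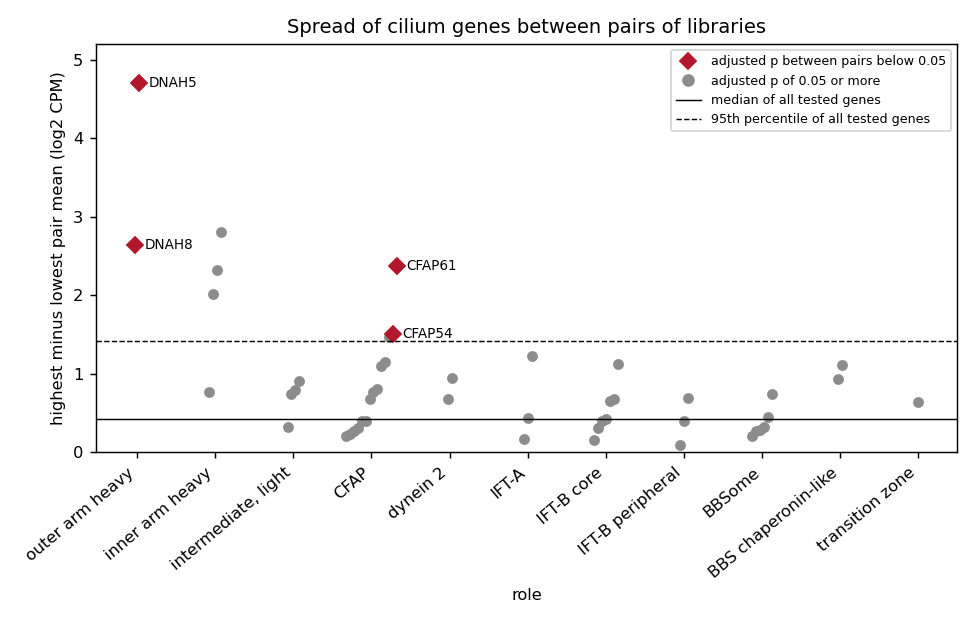
Range of the 3 pair levels (log2) for each of the 48 genes by role; diamonds mark the 4 genes called between pairs, and the lines mark the median (0.42) and the 95th percentile (1.41) of all tested genes. The heavy chains reach 4.71, while most IFT and BBS genes lie around the median of all genes.

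**Figure D4:**
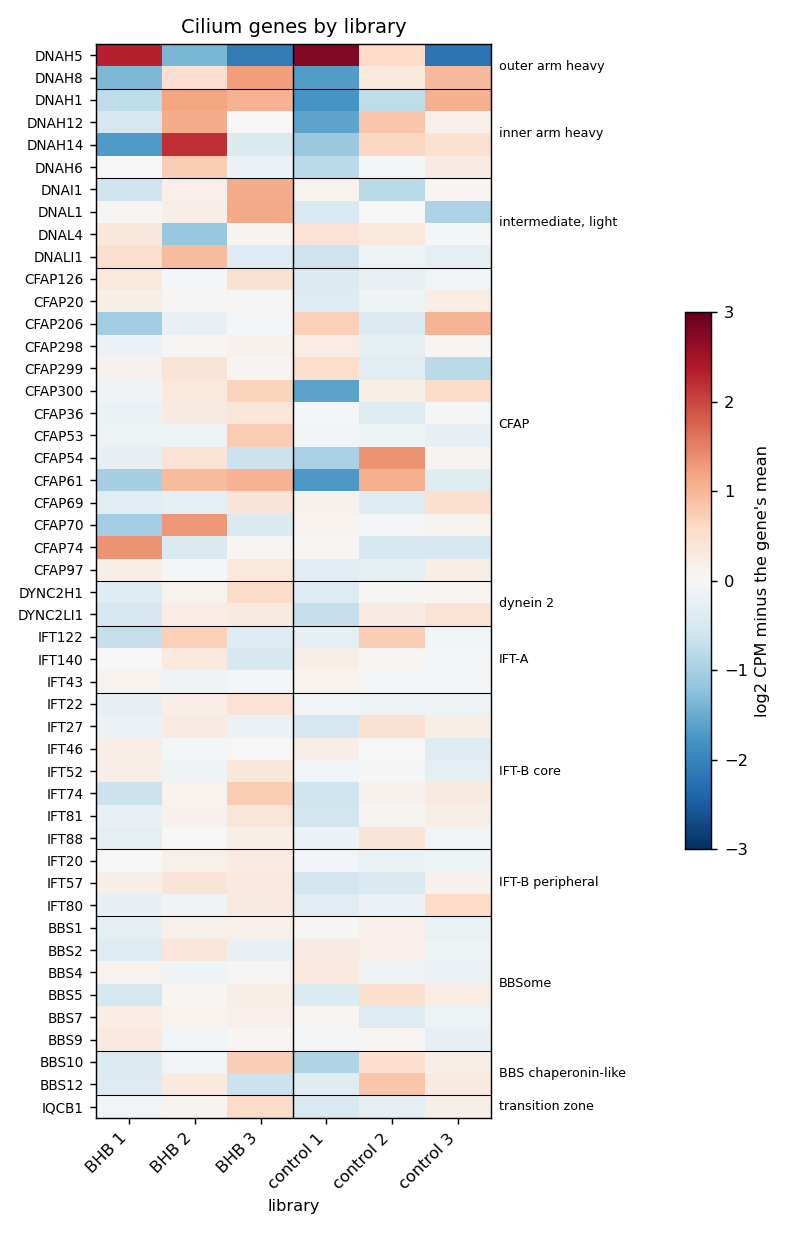
Log2 CPM of each of the 48 genes minus its mean over the 6 libraries, with BHB libraries 1 to 3 to the left of control libraries 1 to 3. The strongest colours lie in the dynein heavy chains, where DNAH8 has like colours in the BHB and control columns of the same number and DNAH5 has them in pairs 1 and 3, and most IFT and BBSome genes are pale.

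Some markers of other lineages differed between pairs too. The summed level of the 4 primitive endoderm markers was 168.7, 231.7 and 230.2 CPM in BHB libraries 1 to 3, against 150.0, 222.6 and 231.1 CPM in control libraries 1 to 3, so that it was lowest in pair 1, as was DNAH8. Of these, PDGFRA (adjusted p = 0.0225) and HNF4A (adjusted p = 0.0332, both by edgeR) differed between pairs and were lowest in pair 1 in both groups. GATA6 did not pass (adjusted p = 0.211 by edgeR). It averaged 97.8, 97.4 and 124.6 CPM in pairs 1 to 3, so pairs 1 and 2 were level. GATA4 was lowest in pair 3 with BHB (0.875 CPM) and in pair 2 in controls (1.99 CPM). All 4 were named after their values were seen. The 8 trophectoderm markers summed to 13630, 11930 and 8451 CPM in BHB libraries 1 to 3, against 17300, 15900 and 10820 CPM in control libraries 1 to 3. This sum was lowest in pair 3 and is mostly KRT8 and KRT18. Other trophectoderm markers went another way: TFAP2C was highest in pair 3 in both groups, and CDX2, GATA2 and TEAD4 were lowest in pair 2. KRT19 was highest in pair 2 in both groups. GATA3 was lowest in pair 1 with BHB and highest there in controls. The 4 inner cell mass markers summed to 358 to 397 CPM with BHB and 383 to 407 CPM in controls, mostly from POU5F1. In that list NANOG had 30.7, 33.4 and 51.2 CPM in BHB libraries 1 to 3, against 72.4, 60.7 and 73.4 CPM in control libraries 1 to 3. KLF17 had 34.2, 24.2 and 32.97 CPM in BHB libraries 1 to 3, against 15.4, 17.9 and 22.3 CPM in control libraries 1 to 3. Their groups did not overlap, in opposite directions, and neither passed edgeR's test; these markers too were named after their values were seen. The 5 markers of multiciliated cells present summed to 8.76 to 24.2 CPM with BHB and 14.3 to 23.1 CPM in controls, of which HYDIN was a large share in pair 2. The 7 of 14 sperm and spermatid markers present summed to 29.5 to 43.8 CPM with BHB and 36.2 to 56.6 CPM in controls, and the 2 of 9 cumulus and granulosa markers to 19.99 to 24.5 CPM with BHB and 19.8 to 26.8 CPM in controls. Of 9 oocyte transcripts only ZP3 was present, at 0.943 to 2.77 CPM with BHB and 0.401 to 2.65 CPM in controls. The part of these cell types in the differences between pairs was not tested.

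The other genes of the cilium were described from 9 lists, which hold 121 tested genes. None was called between BHB and control by edgeR (lowest adjusted p 0.999), DESeq2 or limma-voom. A positive log2 fold change was found in 73 of the 121 (60.3%), against 49.1% of all tested genes. The median was 0.08, against -0.005 over all tested genes. Groups did not overlap in 16 of the 121, 10 with BHB above and 6 with BHB below. Over all tested genes this held for 998 of 12732 (7.84%). At an unadjusted p below 0.05 edgeR gave 3 of them (2.48%), KIF3B, E2F4 and HHIP, against 2.73% of all tested genes; DESeq2 gave 2 and limma-voom 3.

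Among the kinesin-2 motors that drive IFT-B outward, KIF3B had 8.35, 9.14 and 8.61 CPM in BHB libraries 1 to 3, against 5.61, 4.91 and 5.64 CPM in control libraries 1 to 3. The groups lay well apart for their spread, and the log2 fold change was 0.69 (SE 0.26, unadjusted p = 0.0256 and adjusted p = 0.999 by edgeR). Its partner KIF3A gave 0.21 (SE 0.17), and KIFAP3, which joins the motor to its cargo, -0.29 (SE 0.17). Subunits of the IFT particles, the BBSome and dynein 2 under other names had 12 of 21 positive and a median of 0.05. CLUAP1, a subunit of IFT-B, gave 0.45 (SE 0.22) and WDR35, a subunit of IFT-A, -0.78 (SE 0.42), both with groups that did not overlap. WDR35 was set apart by control library 3, at 13.0 CPM against 4.94 and 5.17 CPM in the other controls.

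Transition zone genes had 12 of 21 positive (median 0.04), with NEK8, a kinase, at 0.80 (SE 0.46). Of the genes for dynein assembly and docking 6 of 10 were positive (median 0.09), with LRRC6, an assembly factor, at 0.68 (SE 0.34) and CCDC114, of the docking complex, at 0.76 (SE 0.46). Radial spoke, nexin link and central pair genes had 11 of 15 positive (median 0.21), among them SPAG6 at 0.98 (SE 0.45) and MNS1 at 0.53 (SE 0.29). Of the 121 genes, 1 (0.826%) was called between pairs, against 4.12% of all tested genes, and it is in this group: HYDIN, a giant protein of the central pair, had 0.404, 9.97 and 4.82 CPM in BHB libraries 1 to 3, against 1.87, 11.7 and 7.28 CPM in control libraries 1 to 3 (adjusted p = 0.0125 by edgeR). It was highest in pair 2 and lowest in pair 1 in both groups, as was DNAH12.

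Of the listed transcription and multiciliation factors, FOXJ1, RFX2, RFX4, MCIDAS, GMNC, CCNO, MYB, DEUP1 and CCDC78 were not found in the count table. Of the 7 found there, 5 were positive (median 0.23). E2F4, which takes part in multiciliation with other factors and is also a cell cycle regulator, had 47.96, 42.8 and 45.7 CPM in BHB libraries 1 to 3, against 32.6, 31.2 and 40.04 CPM in control libraries 1 to 3, a log2 fold change of 0.39 (SE 0.16, unadjusted p = 0.0394 and adjusted p = 0.999 by edgeR). RFX3, a regulator of cilium genes, gave 0.23 (SE 0.48), and TP73 gave -0.78 (SE 0.53). Basal body and centriole genes had 13 of 21 positive (median 0.10), with PCM1, the scaffold of centriolar satellites, at -0.28 (SE 0.13) and CETN2, a centrin, at 0.26 (SE 0.17). Ciliary GTPases and membrane proteins had 7 of 14 positive (median 0.01), with RAB3IP at -0.24 (SE 0.16) and RAB11A at -0.19 (SE 0.16).

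Hedgehog signalling runs through the primary cilium, and 5 of its 8 tested genes were positive (median 0.17). HHIP, an inhibitor that binds Hedgehog ligands, had 7.14, 7.89 and 8.61 CPM in BHB libraries 1 to 3, against 2.54, 2.52 and 6.22 CPM in control libraries 1 to 3. The groups did not overlap, and control library 3 stood close to the BHB libraries, as it did for IFT57. The log2 fold change was 1.06 (SE 0.40, unadjusted p = 0.0268 and adjusted p = 0.999 by edgeR). KIF7, a kinesin of the pathway, gave 0.30 (SE 0.50).

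An adjusted p below 0.05 was listed for 2 of the 48 genes (4.17%) in the authors' deposited table, against 5.04% of all genes. They were DNAH8 (adjusted p 1.75e-15 in the authors' deposited table) and IQCB1 (0.0461 in the authors' deposited table). The refit showed that this test takes pair and treatment together, so that a gene that differs between pairs passes it with no difference between BHB and control. DNAH5 has p = 1.01e-09 in the authors' deposited table but an adjusted p of 1 there, a value listed for 23 of the 48 genes and for 3979 genes in all. Those 23 had mean counts there of up to 55.62 (IFT122), and the other members had 59.68 (IFT80) or more. Of the 23, 5 had a p below 0.05 by the authors' test. Both shares above count such genes as not below 0.05. How the value arose is not given in the sources used here.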

How the data were processed

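RNA of pooled day 7 bovine blastocysts was made into stranded polyadenylated libraries and sequenced in 1 lane, per the labels' protocols. The authors deposited whole-number counts per gene, not normalized, made with STAR and featureCounts per the submitters' processing notes; the versions, build and strand setting were not stated in what was used here. The authors' deposited table of their DESeq2 comparison holds a mean count (signal), a log2 fold change of control over BHB, a test statistic (score) and p-values before and after adjustment.

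Counts were fitted over the whole table with edgeR 4.0.16 (R 4.3.3): TMM scaling, filterByExpr, quasi-likelihood F test and Benjamini-Hochberg adjustment at 0.05, with no covariate for BHB against control and with treatment for the pairs. DESeq2 1.42.0, limma 3.58.1 (voom), other scalings and filters, a pair block and leaving out libraries were alternatives. The scripts' edgeR step was tested on simulated data. Counting error is smallest for genes with the most counts, and 13 of the 48 genes averaged under 20 counts.

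DESeq2's likelihood ratio test of pair and treatment against neither gave the deposited p-values within 1e-06 in 99.98% of genes with BHB and control libraries of the same number as pairs, and in 0 to 0.398% with the other pairings. Numbers follow the order of deposit. Deviations from group means correlated across genes at 0.462, 0.322 and 0.329 within pairs and -0.299 to -0.004 between them; genes are not independent replicates.

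Named members are the 6 with the smallest p in each direction, the highest of each role, those whose groups do not overlap and a fixed set, 23 in all; others are said to be chosen after their values were seen, or stand as ends of a range or next to a threshold. Members, lists and rules were chosen with earlier results of these data known. A gene that the rule for the lists takes is not reported here.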

Additional observations from a re-analysis of the deposited data

How the results depend on the processing

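No member that an alternative tested was called between BHB and control, and leaving out 1 library or 1 pair gave 0 to 0; 47 of the 48 were tested without a pair, and DESeq2 with the block gave 33 an adjusted p. With the replicate block edgeR gave 31 positive genes and a median log2 fold change of 0.18; DESeq2 with the replicate block gave a median of 0.17, and the block changed no call of a member. The median was 0.28 on library size alone, 0.061 to 0.276 when 1 library or 1 pair was left out, with 25 to 37 genes positive, and 0.096 with the block and without pair 3. Groups did not overlap in 3 genes on library size alone and in 6 to 13 with a library or pair left out, where fewer libraries make this easier. Calls between pairs numbered 2 on library size alone, 2 among genes of at least 20 counts on average (a filter chosen after seeing the data, which kept 35 members) and 1 to 6 with a pair left out. A filter of 1 CPM in 3 libraries kept all genes. The sign of 13 named genes turned in at least 1 alternative; the cause was not tested. BBS4 gave 0.07 on library size alone, 0.012 with limma-voom, 0.007 with the edgeR block and 0.003 with the DESeq2 block; DYNC2LI1 gave 0.019 and IFT43 0.043 on library size alone. With the block and 1 pair left out, values with the sign turned were 0.067 for BBS2 and 0.104 for BBS4 without pair 1, 0.023 for BBS4, 0.008 for CFAP54, 0.022 for DNAL4, 0.088 for IFT88, 0.003 for DYNC2LI1 and 0.003 for IFT43 without pair 2, and 0.089 for DYNC2LI1 and -0.017 for IFT46 without pair 3. With libraries or pairs left out and no block, the log2 fold change ran from -0.41 to 0.089 for BBS2, -0.10 to 0.16 for BBS4, -0.93 to 0.28 for CFAP54, -0.36 to 0.89 for DNAH12, -0.39 to 0.86 for DNAH8, -0.024 to 1.16 for DNAI1, -0.79 to 0.018 for DNAL4, -0.028 to 0.43 for DYNC2H1, -0.31 to 0.19 for DYNC2LI1, -0.76 to 0.19 for IFT122, -0.087 to 0.027 for IFT43, -0.056 to 0.24 for IFT46 and -0.27 to 0.11 for IFT88. Depth limits the 13 members with under 20 counts on average, whose standard errors ran from 0.38 for BBS1 to 1.03 for DNAH1.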
